A study of Mus musculus with 41 samples.

Results

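The mRNA of Bap1 and of 9 genes whose proteins work with BAP1 was followed in 6 mouse mesothelioma cell lines. The 10 genes, among 27197 genes in the count table, were taken by name, as Bap1 and known protein partners of the Polycomb repressive deubiquitinase (PR-DUB). They are Bap1, Asxl1, Asxl2, Asxl3, Foxk1, Foxk2, Hcfc1, Ogt, Kdm1b, and Mbd6. Of these, 9 were read often enough to be among the 12376 genes that were tested. Asxl3 was not.

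The lines were grown out of primary mesotheliomas. The 3 BNC lines (JB81, JB91, and JB97) are Bap1-/-;Nf2-/-;Cdkn2ab-/-, and the 3 NC lines (JB84, JB87, and JB93) are Nf2-/-;Cdkn2ab-/-, so that loss of Nf2 and Cdkn2ab is common to both groups and Bap1 is the labelled difference between them. Tumors arose after an adenovirus with Cre under the CMV promoter, which is active in most cell types, was injected into the thorax of cyclosporine A-treated mice of mixed genetic background, aged 6–8 wk. Floxed alleles could therefore recombine in any infected cell of the chest cavity. The lines are cells selected in growing tumors and then in culture.

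PR-DUB removes the single ubiquitin that the Polycomb repressive complex PRC1 places on a lysine in the C-terminal tail of histone H2A. BAP1 is its catalytic subunit. It is inactive until an ASXL protein binds and completes the ubiquitin-binding surface. FOXK1 and FOXK2 are forkhead factors that bring the complex to DNA, HCF-1 (the product of Hcfc1) tethers it to transcription factors, OGT adds N-acetylglucosamine to HCF-1 and other nuclear proteins, KDM1B demethylates lysine 4 of histone H3, and MBD6 binds the ASXL subunits. BAP1 is among the genes most often inactivated in human mesothelioma.

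Values are CPM, the reads of a gene relative to all reads of its library on the usual per-library scale, after scaling between libraries by TMM, a method that equalizes the bulk of the genes. Where genes are compared with each other, CPM was divided by the length of all exons of the gene in kb. Total counts were between 20231284 and 23936922 in BNC lines and between 12377675 and 18999233 in NC lines. The TMM factors were 0.9444 to 0.9604 in BNC lines and 0.9816 to 1.0929 in NC lines. Depth and scaling thus differed with the group, without overlap. A value of 3 counts, the limit that a count of 0 allows, corresponds to between 0.133 and 0.247 CPM. The lines were not equally distinct. The biological coefficient of variation was 0.0386 between the BNC lines JB81 and JB91 and 0.0578 between the NC lines JB84 and JB93, against 0.457 to 0.496 for the other pairs within a group, and JB97 had its smallest coefficient with an NC line, JB87 (0.402). JB81 and JB91, like JB84 and JB93, may thus be less than fully independent, and results are also given with each close pair summed. The mesothelial markers Krt8 and Krt18 were read at 0 to 144 counts in BNC lines and at 894 to 4734 counts in NC lines, and Vim was at 4430 to 12900 CPM in BNC lines and 1320 to 4540 CPM in NC lines. Of 8 mesothelial markers, 5 were lower in every BNC line than in every NC line (Krt8, Krt18, Krt19, Msln, and Pdpn), and 3 overlapped (Wt1, Upk3b, and Lrrn4). Their summed level was 135 to 686 CPM in BNC lines and 2310 to 3220 CPM in NC lines. The high BNC value was that of JB97, which had 230 CPM of Msln, 166 CPM of Upk3b, 113 CPM of Pdpn, and 85.7 CPM of Krt19, where JB81 and JB91 had at most 2.48 CPM of each. Krt18 had no read in JB81, and Wt1 was present in all 6 lines. Of the leukocyte and endothelial markers, Cd68 alone passed the filter, at 2.57 to 4.39 CPM. The part of these marker differences in the results below was not tested. In bulk RNA, fewer cells that express a gene and less RNA of it per cell cannot be told apart.

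The deleted gene was read first. JB81, JB91, and JB97 had 43.2, 44.1, and 38.0 CPM of Bap1, while JB84, JB87, and JB93 had 61.5, 60.6, and 64.3 CPM. All BNC lines lay below all NC lines, and the BNC mean was 67.2% of the NC mean. The log2 fold change was -0.57 (standard error, SE, 0.13, 95% interval -0.89 to -0.26, adjusted p = 0.039 by the quasi-likelihood test of edgeR, Benjamini-Hochberg). A gene count cannot show the deletion by itself. The Cre-deleted segment holds exons 6 to 12 of 17 (numbered by the GENCODE transcript of 3460 bp), which make up 872 bp or 25.2% of the transcript, and reads from the other 74.8% are counted on the same gene. Reads were not resolved by exon here.

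**Figure D1:**
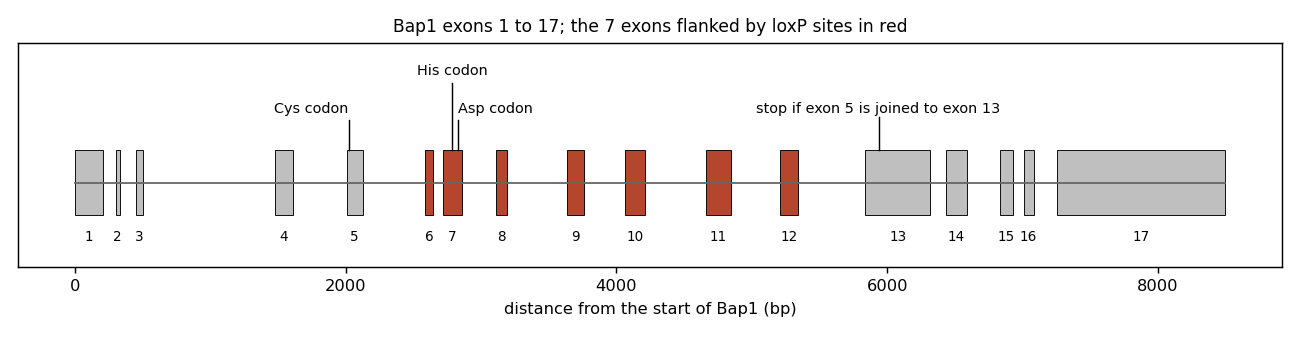
The 17 exons of Bap1, drawn to scale along the gene in bp from its annotated start, with the floxed exons 6 to 12 in red. The codon of the catalytic cysteine lies in exon 5, before the deleted segment, those of the histidine and aspartate lie in exon 7, within it, and the stop codon met when exon 5 is joined to exon 13 lies in exon 13.

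The coding sequence shows what a transcript without the floxed exons could encode. The 3 residues of the catalytic triad are shown because the deletion falls between them. Each is written with the codons around it, from the GRCm38 reference, plus strand of chromosome 14, with its own codon in capitals. The cysteine is codon 91 in exon 5 (chr14:31253456-31253488), the histidine codon lies in exon 7 (chr14:31254219-31254251), and the aspartate codon in the same exon (chr14:31254264-31254296).
Cysteine, retained: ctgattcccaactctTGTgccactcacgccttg
Histidine, deleted: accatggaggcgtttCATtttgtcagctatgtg
Aspartate, deleted: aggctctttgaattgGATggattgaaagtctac

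The segment ahead of the deletion ends on a whole codon, number 125 of 728. Its last 30 bases (chr14:31253546-31253575) and the first 114 bases of exon 13 (chr14:31257289-31257402) are shown because, joined, they give the new reading frame. The stop codon of that frame is in capitals.
End of exon 5: aaggatttcaccaaaggcttcagtcctgag
Start of exon 13: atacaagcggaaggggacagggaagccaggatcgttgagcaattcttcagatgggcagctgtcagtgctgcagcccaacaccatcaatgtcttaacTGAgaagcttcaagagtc

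Read in frame from exon 5, exon 13 adds 32 codons that are not those of BAP1 and then a TGA that starts at base 97 of the 479 bp of the exon, after 157 codons in all. This stop lies 707 bp ahead of the last exon junction. Whether a transcript joined in this way was present in the BNC lines was not measured in these data.

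The plot of CPM by line shows the 10 genes together. Only Bap1 and Kdm1b were lower in every BNC line than in every NC line, while Asxl1, Hcfc1, and Mbd6 were higher. In all, 5 of the 9 tested genes (55.6%) had groups without overlap, against 41.5% of all genes tested. With 3 lines against 3, an exact permutation test cannot give a p-value below 0.1, so single genes were tested with the fit across all genes.

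**Figure D2:**
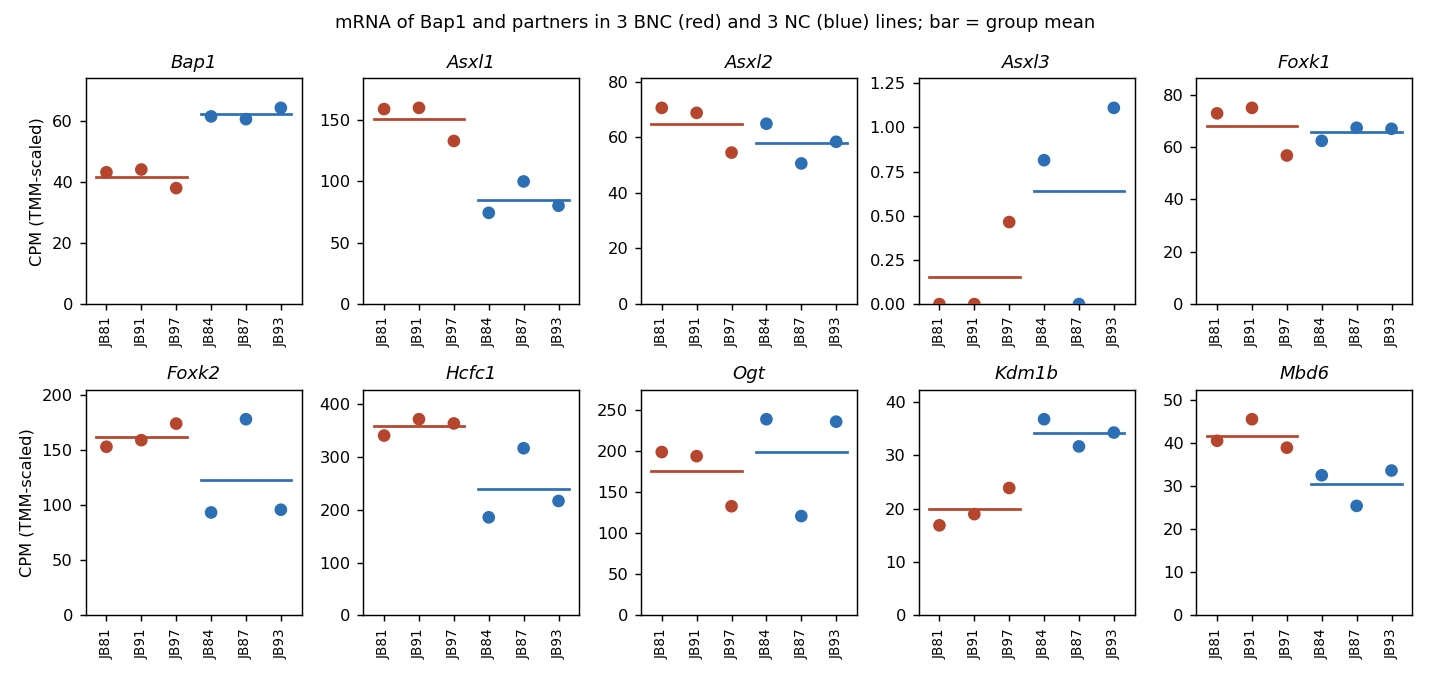
CPM (TMM-scaled) of the 10 genes in each BNC line (red) and NC line (blue), with a bar at the mean of each group of 3 and the axis of every panel starting at 0. The groups are apart for Bap1 and Kdm1b (BNC lower) and for Asxl1, Hcfc1, and Mbd6 (BNC higher). The Foxk2 value of the NC line JB87 lies above those of the BNC lines, and its Ogt value lies below them.

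With an adjusted p below 0.01 and a change beyond 2-fold, 0 of the 9 tested genes and 1.1% of all genes differed by edgeR, and DESeq2 also called 0 of 10, beside 15.1% of all genes. At an adjusted p-value under 0.05, 3 of 9 genes differed, Asxl1 upward and Bap1 and Kdm1b downward, where 14.2% of all genes did. At an unadjusted p under 0.05 there were 5, which adds Hcfc1 and Mbd6, where 35.6% of all genes were. DESeq2 placed the same 3 genes under an adjusted p of 0.05, of 10, and 29.4% of all genes. The median absolute log2 fold change was 0.45 over the 9 genes and 0.52 over all genes tested, and the median log2 fold change was 0.16 over the 9 genes and -0.0023 over all. The 3 calls were lost when the close pairs were summed, with adjusted p-values of 0.495 for Bap1, 0.453 for Asxl1, and 0.53 for Kdm1b (edgeR). They were also lost when any of JB81, JB91, JB84, or JB93 was left out, with 0 genes under 0.05.

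How many of the genes passed depended on the NC line JB87. Without it, 6 of 10 genes were under an adjusted p of 0.05 (edgeR), namely the 3 above with Foxk2, Hcfc1, and Mbd6, but so were 51.9% of all genes. Without the BNC line JB97 it was the first 3 genes again, with 25.4% of all genes.

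**Figure D3:**
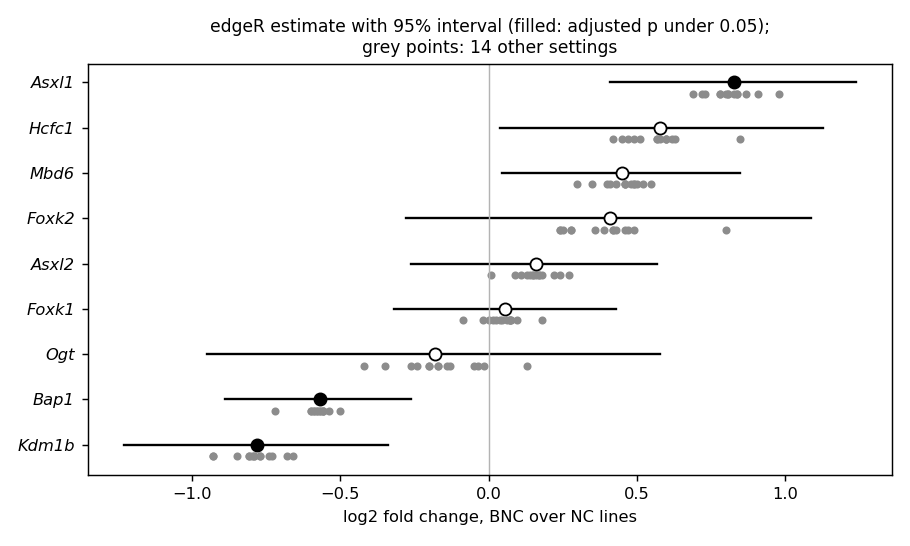
Log2 fold change (BNC over NC) of the 9 tested genes from edgeR with its 95% interval, filled where the adjusted p-value was under 0.05, with the estimates of 14 other settings as grey points beneath. The intervals of Asxl1, Hcfc1, Mbd6, Bap1, and Kdm1b exclude 0, and the points of Foxk1 and Ogt lie on both sides of 0.

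Of the ASXL genes, Asxl1 alone passed the test, and whether it differed from Asxl2 in its response was not tested. Asxl1 (chromosome 2 of GRCm38, 153345829 to 153404007) stood at 159, 160, and 133 CPM in the order JB81, JB91, JB97, against 74.4 CPM in JB84, 100 CPM in JB87, and 80.2 CPM in JB93. All BNC lines were higher, and their mean was 177% of the NC mean, a log2 fold change of 0.83 (SE 0.17, interval 0.41 to 1.24, adjusted p = 0.0323, edgeR). Between the lines that were closest across the groups, JB97 and JB87, the ratio was 1.33, the smallest that these 6 lines give.

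Asxl2 (chromosome 12, 3426857 to 3506852), a paralog of Asxl1 whose product also activates BAP1, was at 70.6, 68.8, and 54.5 CPM in JB81, JB91, and JB97 and at 64.9, 50.6, and 58.4 CPM in JB84, JB87, and JB93. The groups overlapped, and its log2 fold change of 0.16 (SE 0.17, interval -0.26 to 0.57, adjusted p = 0.521, edgeR) did not pass the test. Asxl3 (chromosome 18), the third paralog, was read at 0 counts in JB81, JB91, and JB87, 9 counts in JB97, 12 counts in JB84, and 23 counts in JB93. Each group held a line with no read and a line with reads. It was left out of the edgeR test by the filter on low counts, and DESeq2 gave it a log2 fold change of -2.06 (SE 2.42, adjusted p = 0.541), which did not pass.

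Per exon length, Asxl1 made up 83.3 ± 0.551% (SD, n = 3) of the ASXL mRNA in BNC lines and 75.3 ± 5.13% (SD, n = 3) in NC lines, with every BNC line above every NC line. The margin over JB87 was narrow, at 80.9% beside 82.8% in JB81, while JB84 and JB93 had 70.8% and 74.3%. Asxl2 held 16.6 ± 0.603% (SD, n = 3) and 24.4 ± 4.9% (SD, n = 3), and Asxl3 at most 0.493% in any line. An exon of Asxl1 shares 197 bp with a transcript on the opposite strand, and one of Asxl2 shares 155 bp. The setting for strand in the counting is not given in the sources used here, so reads in these stretches cannot be assigned with certainty.

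Foxk1 (chromosome 5, 142401497 to 142462011) was the steadiest of the 10 genes, with 72.9, 75, and 56.8 CPM among BNC lines (JB81, JB91, JB97) and 62.4, 67.4, and 67.0 CPM among NC lines (JB84, JB87, JB93). Its coefficient of variation over the 6 lines was 10.0%, and its log2 fold change was 0.057 (SE 0.15, interval -0.32 to 0.43, adjusted p = 0.808, edgeR), with a sign that turned to -0.085 without TMM. Foxk2 (chromosome 11, 121259990 to 121309896) was at 153, 159, and 174 CPM in the BNC lines and at 93.4, 178, and 95.9 CPM in JB84, JB87, and JB93. JB87 thus had more Foxk2 mRNA than any BNC line, and JB84 and JB93 had less. The log2 fold change of Foxk2 was 0.41 (SE 0.28, adjusted p = 0.333, edgeR) with JB87 and 0.80 (adjusted p = 0.00366, edgeR) without it. Per length, Foxk2 made up 77.3 ± 3.61% (SD, n = 3) of the FOXK mRNA in BNC lines and 71.6 ± 6.57% (SD, n = 3) in NC lines, with overlap.

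Hcfc1 (chromosome X, 73942792 to 73966357) was at 341, 372, and 364 CPM in JB81, JB91, and JB97 and at 186, 317, and 217 CPM in JB84, JB87, and JB93. Each BNC line was above each NC line, by a narrow margin over JB87. The log2 fold change of 0.58 (SE 0.22, interval 0.038 to 1.13, p = 0.0397, adjusted p = 0.123, edgeR) did not pass after adjustment. Without JB87 it was 0.85 (adjusted p = 0.00413, edgeR).

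Ogt (chromosome X, 101640060 to 101684351) was at 199, 194, and 133 CPM in the BNC lines and at 239, 121, and 236 CPM in JB84, JB87, and JB93. The low values were those of JB97 and JB87, a line of each group. Its log2 fold change was -0.18 (SE 0.31, interval -0.95 to 0.58, adjusted p = 0.691, edgeR), and it turned to 0.13 with a replicate block. Oga, the gene of the enzyme that removes what OGT adds, was at 140, 138, and 155 CPM in the BNC lines and at 379, 142, and 360 CPM in JB84, JB87, and JB93. JB87 lay within the range of the BNC lines. Oga differed by a log2 fold change of -1.03 (SE 0.37, p = 0.0327, adjusted p = 0.11, edgeR).

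Kdm1b (chromosome 13, 47043499 to 47085279) fell beside Bap1. JB81, JB91, and JB97 had 16.9, 19.0, and 23.9 CPM of it, and JB84, JB87, and JB93 had 36.8, 31.7, and 34.3 CPM. The BNC mean was 58.1% of the NC mean, with no overlap, which is a log2 fold change of -0.78 (SE 0.18, interval -1.23 to -0.34, adjusted p = 0.0419, edgeR). Its exons share 505 bp with Dek on the opposite strand. As the strand setting is not given, whether reads in this stretch were counted for Kdm1b, for Dek, or for neither is not known. Kdm1a, its relative in the CoREST complex, was at 92.2 to 104 CPM in the 6 lines and differed by 0.066 on the log2 scale (SE 0.12, adjusted p = 0.706, edgeR).

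Mbd6 (chromosome 10, 127281956 to 127289018) was at 40.5, 45.5, and 38.9 CPM in JB81, JB91, and JB97 and at 32.5, 25.4, and 33.6 CPM in JB84, JB87, and JB93. The groups were apart, and the log2 fold change was 0.45 (SE 0.17, interval 0.046 to 0.85, p = 0.0343, adjusted p = 0.113, edgeR). Mbd5, its paralog, was at 48.3, 48.3, and 30.0 CPM in the BNC lines and at 41.3, 22.3, and 39.9 CPM in NC lines, with overlap (log2 fold change 0.29, SE 0.31, adjusted p = 0.52, edgeR).

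Per length, the order of the mean levels over the 6 lines was Hcfc1 (35.8 CPM per kb), Foxk2 (27), Ogt (23.2), Asxl1 (15.8), Bap1 (11.1), Foxk1 (8.82), Mbd6 (8.10), Kdm1b (4.93), Asxl2 (3.85), and Asxl3 (0.0256). Hcfc1 was above Foxk2, and Asxl2 above Asxl3, in 6 of 6 lines. The other neighbors in this order exchanged places in 1 or 2 lines, so their rank does not exceed the spread between lines. Divided by the length of the longest transcript, a measure chosen after seeing the data, Ogt was at 34.7 CPM per kb and stood before Foxk2 (28.3), and the other ranks did not move. Bap1 itself was at the middle of the order, with 9.23, 9.42, and 8.12 CPM per kb in JB81, JB91, and JB97 and 13.1, 13, and 13.7 in JB84, JB87, and JB93. The full exon length of Bap1 was used in all lines, so its BNC values are too low if their transcripts lack exons 6 to 12.

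The balance of partner to Bap1 mRNA was then described, as the ratio of CPM per kb in the same line. The ratio of Asxl1 to Bap1 was 2.31, 2.28, and 2.21 in JB81, JB91, and JB97 and 0.76, 1.04, and 0.784 in JB84, JB87, and JB93. Asxl1 mRNA thus exceeded Bap1 mRNA in all BNC lines and was close to it or below it in NC lines. The ratio of Hcfc1 was 4.84 ± 0.486 (SD, n = 3) in BNC and 2.17 ± 0.662 (SD, n = 3) in NC lines, and that of Foxk2 3.48 ± 0.516 and 1.76 ± 0.734 (SD, n = 3 each). The ratio of Mbd6 was 1.05 ± 0.0558 in BNC and 0.515 ± 0.0648 in NC lines, and that of Foxk1 1.0 ± 0.0715 and 0.652 ± 0.0309 (SD, n = 3 each). The ratio of Asxl2 was 0.453 ± 0.0297 and 0.274 ± 0.0329 (SD, n = 3 each). For these 6 of 9 partners all BNC lines were above all NC lines, with Bap1 at its full exon length. The share of all genes whose ratio to Bap1 does so was not computed. Because every ratio has Bap1 in its denominator, its lower level in BNC lines enters all of them, and they are not 6 separate results. Foxk1, with a log2 fold change of 0.057, was apart in this ratio too. Bap1 was divided by its full exon length of 4682 bp in every line. If BNC transcripts lack exons 6 to 12 (872 bp), this raises every BNC ratio. For Foxk2, the ratio was 3.15 in JB81 and 2.61 in JB87. With Bap1 shorter by 872 bp in BNC lines, JB81 would fall below JB87, and the groups would overlap. The ratios of Ogt, Kdm1b, and Asxl3 overlapped. For Kdm1b, which was lower together with Bap1, the BNC lines had a ratio of 0.411 ± 0.108 and the NC lines one of 0.47 ± 0.0345 (SD, n = 3 each). No test was run on these ratios.

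**Figure D4:**
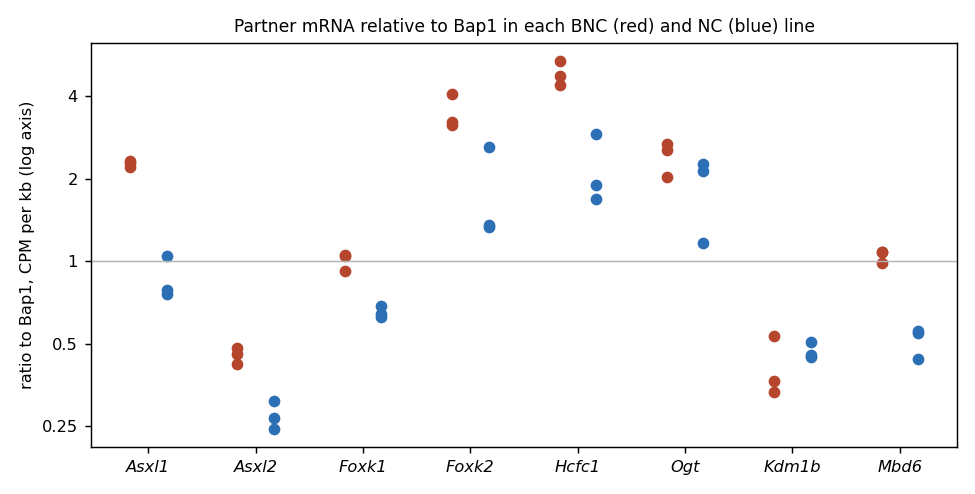
Ratio of each partner to Bap1 in CPM per kb (log axis) for each BNC line (red) and NC line (blue), with a line at equal levels and without Asxl3. With Bap1 at full exon length, the BNC points lie above the NC points for Asxl1, Asxl2, Foxk1, Foxk2, Hcfc1, and Mbd6. They overlap with the NC points for Ogt and Kdm1b.

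Across the 6 lines, the log2 CPM of Bap1 went with that of Kdm1b (Pearson's r = 0.84) and against those of Asxl1 (-0.88), Hcfc1 (-0.80), Mbd6 (-0.75), and Foxk2 (-0.66). It was nearly unrelated to Foxk1 (r = 0.05). These coefficients are a description over 6 points that fall into the groups compared above, and they restate the differences between groups. Of 9082 genes with a mean of at least 10 CPM, the 3 whose pattern over the 6 lines was most like that of Bap1 were Nicn1 (r = 0.9987), Mkrn1 (r = 0.9949), and Ifi30 (r = 0.9947). Their fold changes were larger than that of Bap1. Nicn1 was at 5.31, 5.30, and 2.47 CPM in JB81, JB91, and JB97 and at 20.8, 19.4, and 26.2 CPM in JB84, JB87, and JB93. Like Bap1, all 3 were lowest in JB97.

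The columns of the 6 lines carry 1 of 2 numeric prefixes, whose meaning is not given in the sources used here. JB81, JB84, and JB87 share the first, and JB91, JB97, and JB93 the other. Within the first set (1 BNC, 2 NC) the log2 difference was -0.49 for Bap1, 0.87 for Asxl1, and -0.97 for Kdm1b. Within the other set (2 BNC, 1 NC) it was -0.64, 0.86, and -0.66. The direction was the same on both sides, which was fixed in advance because the groups of these 3 genes do not overlap. Each set also holds 1 line of each close pair, so the sets are not independent. With the prefix as a covariate, the adjusted p-values (edgeR) were 0.103, 0.0775, and 0.0883, and the 3 calls at 0.05 were lost.

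Bap1 lies on chromosome 14 (GRCm38, 31251450 to 31259944, plus strand), and its tested neighbors were read to place its difference. Ahead of it, Phf7, which encodes a histone ubiquitin ligase expressed chiefly in germ cells, runs the other way, with its start 133 bp from that of Bap1. Phf7 was at 5.40, 5.57, and 4.59 CPM in JB81, JB91, and JB97 and at 12.6, 5.6, and 11.1 CPM in JB84, JB87, and JB93. Every BNC line was lower, but JB87 was only just above JB91, and the log2 fold change of -0.91 (SE 0.35, p = 0.0413, adjusted p = 0.126, edgeR) did not pass. The 132 bases between the 2 annotated starts (chr14:31251318-31251449, RefSeq promoter table, GRCm38.p6, plus strand) are shown because the genes lie back to back across them, with each CpG dinucleotide in capitals.
Between Phf7 and Bap1: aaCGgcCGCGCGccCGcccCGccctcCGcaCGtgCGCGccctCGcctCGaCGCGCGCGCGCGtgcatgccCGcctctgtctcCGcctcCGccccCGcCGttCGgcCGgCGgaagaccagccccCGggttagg

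This stretch is 81.1% G and C and holds 27 CpG (the letters CG, which read the same on both strands). In the window of the same place and length in 32843 RefSeq promoters, 83.0% hold at least 1 CpG and 0.256% hold as many as this one, with a median of 3. Methylation of these bases was not analysed here.

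Of the other neighbors, Nisch, which encodes the integrin- and imidazoline-binding protein nischarin, was at 496, 522, and 354 CPM in the BNC lines and 198, 272, and 213 CPM in the NC lines, and it rose by 1.01 on the log2 scale (SE 0.22, adjusted p = 0.0355, edgeR). Tnnc1 (0.45, adjusted p = 0.405), Capn7 (0.062, adjusted p = 0.802), and Sh3bp5 (-0.28, adjusted p = 0.617) did not pass (edgeR). Mettl6, an RNA methyltransferase gene, was at 26.6, 24.3, and 26.5 CPM in BNC lines and at 35.3, 36.8, and 34.2 CPM in NC lines (log2 fold change -0.46, SE 0.13, adjusted p = 0.0639, edgeR). Neighbors thus lay on both sides of 0, and the median log2 fold change of 410 genes of chromosome 14 was 0.15.

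The other enzymes that write, read, or remove H2A ubiquitin, and further partners of BAP1, were described from 6 lists with 41 genes, all of them tested. At an adjusted p under 0.05, 0 of 41 differed by edgeR, beside 14.2% of all genes. An unadjusted p under 0.05 was found for 11 of 41, beside 35.6% of all genes. DESeq2 placed 5 of 41 under an adjusted p of 0.05 (Pcgf5, Oga, Usp16, Usp22, and Itpr3), beside 29.4% of all genes. The groups did not overlap in 13 of the 41 (31.7%), their median log2 fold change was -0.039, and the median absolute change was 0.30. The share of all genes without overlap was 41.5%, as given above. Without JB87, 19 of the 41 were under an adjusted p of 0.05 by edgeR, beside 51.9% of all genes, and without JB97 5 were, beside 25.4%.

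**Figure D5:**
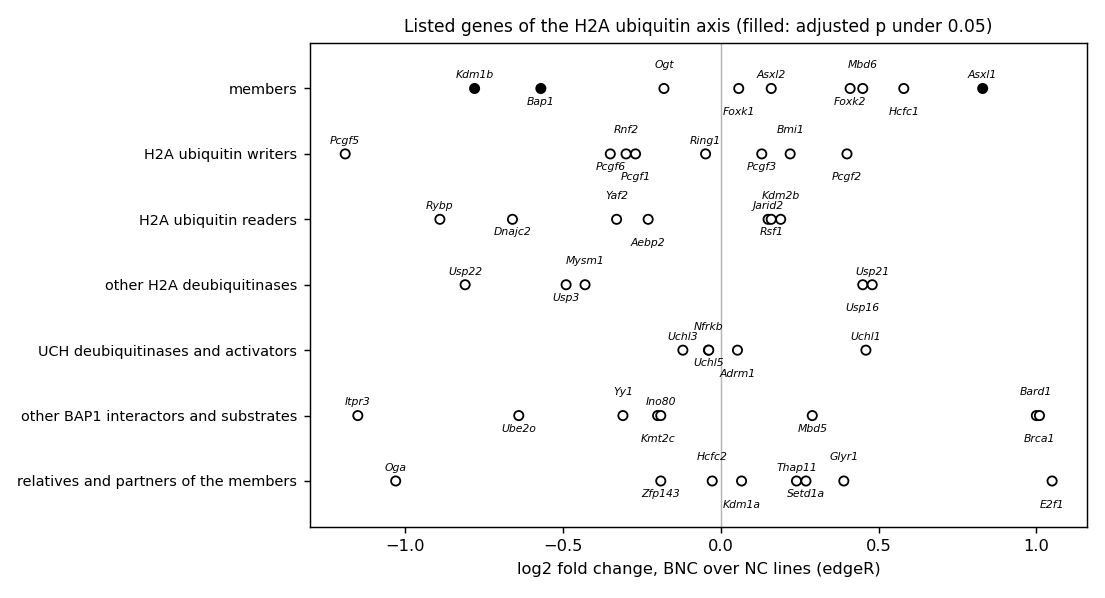
Log2 fold change (BNC over NC, edgeR) of the tested members and of the 41 other listed genes, one row per list, filled where the adjusted p-value was under 0.05. Only Kdm1b, Bap1, and Asxl1 are filled, and the genes of the other lists lie between -1.19 (Pcgf5) and 1.05 (E2f1).

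Of the 8 writers, subunits of PRC1 that place the mark, 1 had an unadjusted p under 0.05, as 35.6% of all genes did, a share to which the counts of the next lists also compare. Pcgf5, a subunit of a variant PRC1, was at 9.17, 8.27, and 22.8 CPM in JB81, JB91, and JB97 and at 31.2, 27.5, and 32.7 CPM in JB84, JB87, and JB93. All BNC lines were lower, JB97 by a small margin, and the log2 fold change was -1.19 (SE 0.42, p = 0.0303, adjusted p = 0.105, edgeR). Pcgf2 had a log2 fold change of 0.40 (SE 0.17, adjusted p = 0.153, edgeR), and the catalytic subunits Ring1 and Rnf2 had -0.048 (adjusted p = 0.903) and -0.30 (adjusted p = 0.277, edgeR).

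Of the 7 readers, 1 had an unadjusted p under 0.05. This was Yaf2 (log2 fold change -0.33, SE 0.13, p = 0.0447, adjusted p = 0.131, edgeR), at 35.6 to 38.6 CPM in BNC lines and 42.8 to 49.9 CPM in NC lines. Rybp, its paralog, which binds ubiquitinated H2A within variant PRC1, was at 44.8, 43.3, and 64.9 CPM in the BNC lines, at 49.4 CPM in JB87, at 115 CPM in JB93, and slightly above that in JB84 (log2 fold change -0.89, adjusted p = 0.146, edgeR). JB87 was below JB97.

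The 5 other H2A deubiquitinases had 4 genes with an unadjusted p under 0.05, beside 35.6% of all genes, and 0 after adjustment. Usp3 was at 23.7 to 30.7 CPM in BNC and 34.0 to 39.7 CPM in NC lines (log2 fold change -0.49, SE 0.16, adjusted p = 0.088, edgeR). Usp22, of the SAGA complex, was at 118, 120, and 140 CPM in the BNC lines and at 253, 139, and 271 CPM in JB84, JB87, and JB93 (log2 fold change -0.81, SE 0.27, adjusted p = 0.0939, edgeR). Usp16 and Usp21 were higher in every BNC line than in every NC line, with log2 fold changes of 0.45 (adjusted p = 0.0943) and 0.48 (adjusted p = 0.128, edgeR). The members of this list differed in direction, and its median log2 fold change was -0.43.

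Of the UCH deubiquitinases, the enzyme family of BAP1, and their activators, 0 of 5 had an unadjusted p under 0.05, and the median absolute log2 fold change was 0.053. Uchl1 had the largest difference (0.46, SE 0.44, adjusted p = 0.466, edgeR), with 13.9 CPM in JB97, 9.23 CPM in JB87, and 4.89 to 6.59 CPM in the other lines. Uchl3 had -0.12 (adjusted p = 0.751) and Uchl5, the UCH enzyme nearest to BAP1 in sequence, -0.039 (adjusted p = 0.893, edgeR).

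Of 8 other BAP1 interactors and substrates, 3 had an unadjusted p under 0.05. Itpr3, an inositol trisphosphate receptor of the endoplasmic reticulum that BAP1 stabilizes, was at 55.4, 59.9, and 115 CPM in JB81, JB91, and JB97 and at 187, 125, and 200 CPM in JB84, JB87, and JB93. The BNC lines were lower, with JB97 and JB87 near each other (log2 fold change -1.15, SE 0.35, p = 0.0158, adjusted p = 0.0735, edgeR). Ube2o, whose enzyme adds ubiquitin to BAP1 and keeps it in the cytoplasm, was at 29.4, 27.5, and 46.9 CPM in BNC lines and at 49.0, 57.5, and 55.7 CPM in NC lines (log2 fold change -0.64, SE 0.24, adjusted p = 0.115, edgeR). Brca1 and Bard1, named after their values had been seen, were at 66.2, 67.3, and 70.3 CPM and at 30.7, 29.5, and 23.1 CPM in the BNC lines. In JB84, JB87, and JB93 they were at 15.1, 72.8, and 13.5 CPM and at 8.07, 25.4, and 8.20 CPM. JB87 was therefore like the BNC lines, and the log2 fold changes of 1.01 and 1.0 had adjusted p-values of 0.317 and 0.198 (edgeR).

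Of 8 relatives and partners of the members, Oga and E2f1 had an unadjusted p under 0.05. E2f1, whose product binds HCF-1, was higher in every BNC line than in every NC line, with JB87 the nearest, at 48.6, 48.1, and 49.2 CPM in BNC lines and 14.2, 40.9, and 15.6 CPM in JB84, JB87, and JB93 (log2 fold change 1.05, SE 0.43, p = 0.0494, adjusted p = 0.139, edgeR). In a set put together after the values were seen, E2f1, Brca1, Bard1, Oga, Usp22, Rybp, Foxk2, and Hcfc1, the close NC pair JB84 and JB93 stood on 1 side and JB87 was nearer to the BNC lines or among them. Bap1 did not follow this division. It was at 60.6 CPM in JB87 beside 61.5 and 64.3 CPM in JB84 and JB93, and JB97 had 0.627 of the Bap1 level of JB87. This was not particular to Bap1, since other listed genes also kept JB87 beside JB84 and JB93. In JB84, JB87, and JB93, Yy1 was at 98.3, 91.1, and 89.5 CPM and Ube2o at 49.0, 57.5, and 55.7 CPM.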

How the data were processed

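Poly-A–enriched RNA of 6 cell lines was analysed. The authors deposited counts, whole numbers of single-end reads per Ensembl gene, not normalized. They mapped reads to mm10 with TopHat (2.0.12), dropped reads of low mapping quality, and counted with HTSeq-count. The group of a line was read from its name in the study's supplement. The other 23 columns (9 of RNA, 14 of DNA) name no sample or group, so tumors were not analysed here.

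Counts were tested with edgeR 4.0.16 in R 4.3.3 (TMM, filterByExpr with minimum count 10, glmQLFTest without covariates, Benjamini-Hochberg), after a test on simulated data. The simulation had independent lines and larger changes than the members showed, so it does not speak to close pairs or small changes. DESeq2 1.42.0 was an alternative. Other settings were no TMM, 2 other filters, a replicate block, the column prefix, close pairs summed, and each line left out. Nothing says whether lines came from separate mice, so p-values measure the spread between these lines. Gene models are GENCODE M21 on GRCm38. Figures were drawn with matplotlib 3.10.9.

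The members and lists were chosen with earlier results of these data known. Named were all members, the 2 genes of each list with the smallest p, 3 tested neighbors on each side of Bap1, and the 3 genes most correlated with it. Others named are Asxl and Mbd relatives, catalytic subunits, and genes called by DESeq2.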

Additional observations from a re-analysis of the deposited data

How the results depend on the processing

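Over 14 alternatives for each of the 9 tested genes (126 values), 94 kept direction and side of the 0.05 threshold, 26 kept direction but lost the call, 3 gained it, and 3 turned. Foxk1 turned to -0.085 without TMM and to -0.019 with close pairs summed, and Ogt turned to 0.13 with the replicate block. The log2 fold change of Bap1 lost its call without a filter (-0.56), with the replicate block (-0.54, or -0.58 with JB97 taken as number 3), with the prefix as covariate (-0.57), and with close pairs summed (-0.60). It ranged from -0.60 to -0.50 with each line left out. The number of members under an adjusted p of 0.05 was 3, and it fell to 1 without a filter and to 0 with either replicate block, with the prefix, and with close pairs summed. It ranged from 0 to 6 with each line left out. Of the other listed genes, 5 passed by DESeq2, and 0 to 19 with each line left out. The count of 6 was without JB87, that without JB97 was 3, and that without any of the other lines was 0. The causes were not tested. Whether replicate numbers pair the lines is not known. Correlations of the lines' deviations from their group means were 0.101, -0.069, and 0.082 for same-numbered lines and -0.087 to 0.083 for the others. With 3 lines and a close pair in each group, and the same number on JB91 and JB97, such values cannot decide it. Adjusted p-values over all alternatives were from 0.00197 to 0.495 for Bap1, 0.000353 to 0.453 for Asxl1, and 0.00449 to 0.53 for Kdm1b. Asxl3 did not pass the filter of the edgeR test.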
